A study of Mus musculus with 15 samples.

Results

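The genes described here encode the AP-1 transcription factors: the Fos family (Fos, Fosb, Fosl1 and Fosl2), the Jun family (Jun, Junb and Jund) and Atf3, a related factor of the ATF family. They were chosen by name, and all 8 were among the 35976 genes of the count table. Nuclear RNA was sequenced from the ventral tegmental area of male mice, heterozygous for a Cre allele at the dopamine transporter gene (B6.SJL-Slc6a3tm1.1(cre)Bkmm/J, called DAT-Cre) and 8 to 12 weeks old per the labels. Every mouse received the Cre-dependent virus AAV5-DIO-KASH-HA in the ventral tegmental area, with 14 days allowed for transduction, and then 7 days of food training in daily sessions. Each sample pooled 2 mice, and frozen nuclei were sorted into HA-positive ones, called dopaminergic by the labels, and HA-negative ones, called non-dopaminergic.

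The dopaminergic samples were taken once food training had ended (n = 4), after the final maintenance session of cocaine self-administration (n = 3) and after 21 days of abstinence in the home cage (n = 4). Non-dopaminergic nuclei came from food-trained mice (n = 4). Cocaine was given intravenously on lever presses, 1 hour a day, with each infusion holding 0.3 mg/kg over the first 5 days and 1.0 mg/kg over the next 10 days. The cocaine groups therefore also differed from the food-trained group in age and in catheter surgery, and these cannot be told apart from cocaine. Both populations carried the Cre allele and came from injected tissue, and any dopamine neuron without the virus was sorted into the HA-negative fraction.

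AP-1 is a dimer of basic leucine zipper proteins. Fos proteins bind DNA only with a partner, usually a Jun protein, while Jun proteins also pair among themselves, and Atf3 can pair with Jun proteins or with itself. Several of the genes are immediate early genes, which neurons switch on within minutes of calcium or kinase signalling and whose RNA is short-lived, and Jund is known as the more steadily expressed Jun gene. A shortened product of Fosb, deltaFosB, is known to build up in the striatum with repeated cocaine, but counts per gene do not separate it from full-length FosB.

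The stretches of sequence directly before the RefSeq start of 4 of the genes are shown. Those of Fos, Jun and Atf3 each hold a response element known to take part in induction, and elements further upstream were not searched. Junb, whose level followed that of Jun over the libraries, held none of the motifs marked in the others in the window searched. Each stretch is 120 bases long, 5' to 3' on the gene's strand and ending directly before the gene's RefSeq start (GRCm38.p6), and capitals mark the motif.
Fos, chr12:85473770-85473889, plus strand: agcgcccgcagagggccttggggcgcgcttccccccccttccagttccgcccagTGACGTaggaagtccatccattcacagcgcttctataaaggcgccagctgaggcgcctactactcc
Jun, chr4:95052223-95052342, minus strand: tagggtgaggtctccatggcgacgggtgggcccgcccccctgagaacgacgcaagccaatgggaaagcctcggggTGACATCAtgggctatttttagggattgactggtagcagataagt
Junb, chr8:84978749-84978868, minus strand: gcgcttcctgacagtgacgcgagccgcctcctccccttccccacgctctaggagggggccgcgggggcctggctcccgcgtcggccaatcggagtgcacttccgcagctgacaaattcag
Atf3, chr1:191183334-191183453, minus strand: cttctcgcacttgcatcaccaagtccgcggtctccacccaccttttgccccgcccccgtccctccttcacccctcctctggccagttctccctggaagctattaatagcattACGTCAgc

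In Fos the capitals mark the core of a cyclic AMP response element, TGACGT, at positions -66 to -61 from the start, with a TATA element (TATAA) at -33 to -29. In Atf3 the same core lay on the opposite strand at -8 to -3, and therefore reads ACGTCA. That RefSeq start lies inside the longer span that GENCODE M21 gives for Atf3 (191170296 to 191218039 on chromosome 1), whose outer start was not searched. In Jun they mark TGACATCA, a variant AP-1 site known to bind Jun with ATF factors, at -45 to -38, with a CCAAT box at -65 to -61. In Junb a CCAAT box lay at -36 to -32.

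Promoters of 7 of the 8 members were matched by symbol, and the 250 bases before each start were searched on both strands. The Jund window ended at 70697738 on chromosome 8, upstream of the GENCODE M21 start at 70698949. The sequence directly before that start was not searched. The AP-1 site itself, TGACTCA, was in none of the 7 windows, and neither was a CArG box, the element bound by serum response factor. Sequence further upstream was not searched, so a site or box there, in Fos or another member, would not be seen. Over all 32851 windows searched, TGACTCA was in 4.46%, TGACGT in 6.47%, TGACATCA in 2.93%, CCAAT in 33.8%, TATAA in 22.8% and a CArG box in 1.47%. None of the motifs searched overlapped TGACGT or TGACATCA in the windows shown, and a match describes letters only.

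Total counts ran from 25813697 to 59046618 per library, so that a count of 0 allowed at most 0.0523 to 0.110 CPM, taking 3 counts as the limit. CPM here are counts per 1000000, scaled by TMM factors, and the libraries were amplified from low input without molecular identifiers, so such limits cover counting error only. Genes with at least 1 count numbered 14841 to 19750 in the dopaminergic libraries and 22733 to 23886 in the non-dopaminergic ones. Over all genes, a count of 0 was therefore more frequent in dopaminergic libraries. The sorted populations differed in their cell markers. Summed over 13 dopamine neuron genes the level was 5982 to 12593 CPM in the dopaminergic libraries and 422 to 644 CPM in the non-dopaminergic ones. Over 10 oligodendrocyte genes it was 755 to 1568 CPM and 7523 to 21931 CPM, so the non-dopaminergic fraction held glia as well as neurons. Libraries also differed in how their values depended on the GC content of genes. For each gene, the deviation of log2 CPM from its mean over all 15 libraries was fitted on transcript GC within each library. The slope is thus relative to the other libraries. Per percent of GC it was -0.0377 to -0.0224 in the 3 maintenance libraries, -0.0167 to 0.0182 after food training and -0.00184 to 0.0204 in abstinence. In non-dopaminergic replicate 2 it was -0.0248, against 0.0209 to 0.0322 in the other 3 of that group.

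Per length of transcript, Jun, Junb and Jund together made up 59.8% to 98.0% of the AP-1 RNA after food training, 81.3% to 85.9% in abstinence and 68.2% to 87.7% in non-dopaminergic nuclei, and 43.3% to 66.3% at maintenance. The 8 genes together reached 54.4 ± 10.9 CPM per kb after food training (SD, n = 4), 20.9 ± 3.10 at maintenance (n = 3), 39.6 ± 8.86 in abstinence (n = 4) and 41.6 ± 12.4 in non-dopaminergic nuclei (n = 4). The 3 maintenance libraries, at 18.5 to 24.4 CPM per kb, lay below every other dopaminergic library, which ran from 32.4 to 67.0, and overlapped the non-dopaminergic range of 23.7 to 50.8. Jun and Junb together took 51.2% to 79.1% of that sum after food training, 66.5% to 72.9% in abstinence and 33.1% to 51.5% at maintenance. The maintenance range touched the food-trained range at its upper end and lay below that of abstinence.

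**Figure D1:**
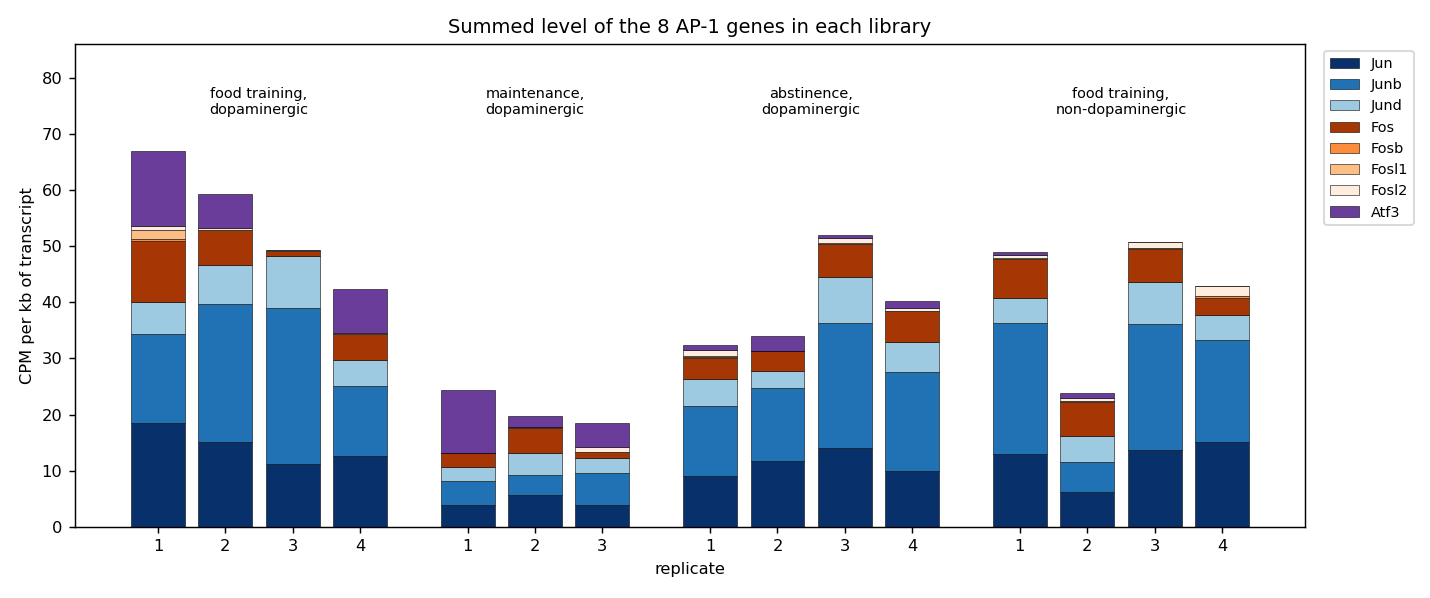
Summed level of the 8 AP-1 genes in each of the 15 libraries, in CPM per kb of transcript (stacked bars, one colour per gene, libraries by group and replicate number). The 3 maintenance bars end between 18.5 and 24.4 CPM per kb, and the other dopaminergic bars between 32.4 and 67.0.

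In food-trained dopaminergic nuclei the order of mean levels per kb was Junb (20.1 ± 7.22 CPM per kb), Jun (14.4 ± 3.16), Atf3 (6.80 ± 5.55), Jund (6.71 ± 1.99) and Fos (5.59 ± 4.15), each as SD with n = 4. The differences between neighbours in that order were smaller than the SD of the higher one except between Jun and Atf3. Fosl1 (0.395 ± 0.790), Fosl2 (0.359 ± 0.241) and Fosb (0.0875 ± 0.175) followed. Atf3 held the highest mean at maintenance, at 5.90 ± 4.81 CPM per kb (n = 3), ahead of Junb at 4.50 ± 1.10 and Jun at 4.41 ± 1.03, though by less than its SD. That rank rested on replicate 1, at 11.3 CPM per kb. In replicates 2 and 3 Atf3, at 2.04 and 4.36, was below Junb, at 3.53 and 5.70. In abstinence the order was Junb (16.4 ± 4.58), Jun (11.2 ± 2.22), Jund (5.31 ± 2.20), Fos (4.67 ± 1.20) and Atf3 (1.32 ± 0.924). In non-dopaminergic nuclei Atf3, at 0.368 ± 0.324 CPM per kb, came after Fosl2 at 0.950 ± 0.565.

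Jun encodes c-Jun, the founding Jun protein and a substrate of the Jun kinases. It is a gene of 1 exon on chromosome 4 (95049034 to 95052222, minus strand, GRCm38, GENCODE M21). Jun was at 58.9, 48.0, 35.9 and 40.5 CPM in the 4 food-trained dopaminergic libraries, in replicate order. At maintenance it was at 12.1, 17.9 and 12.2 CPM. In abstinence it was at 28.9, 37.4, 44.9 and 31.7 CPM, and in non-dopaminergic nuclei at 41.3, 19.8, 43.8 and 48.4 CPM. All 3 maintenance libraries were below all 12 others, and the other groups overlapped one another.

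Junb, also of 1 exon (chromosome 8, 84974484 to 84978718, minus strand), encodes a Jun protein that activates fewer promoters than c-Jun and can oppose it. After food training it was at 28.6, 44.5, 50.1 and 22.4 CPM, and at maintenance at 7.72, 6.39 and 10.3 CPM. Abstinence libraries had 22.5, 23.6, 40.3 and 32.1 CPM. Non-dopaminergic libraries had 42.4, 9.77, 40.4 and 32.9 CPM. The maintenance libraries were again the lowest of the dopaminergic ones, and only non-dopaminergic replicate 2 fell within their range.

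Jund (1 exon, chromosome 8, 70698949 to 70700616, plus strand) encodes JunD, which in many cell types restrains growth. Its level was 9.67, 11.8, 15.5 and 7.80 CPM after food training and 4.17, 6.57 and 4.50 CPM at maintenance. It was 8.11, 4.78, 13.7 and 8.82 CPM in abstinence, where replicate 2 fell within the maintenance range. In non-dopaminergic nuclei it was 7.29, 7.64, 12.7 and 7.18 CPM, with no value as low as those of maintenance.

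**Figure D2:**
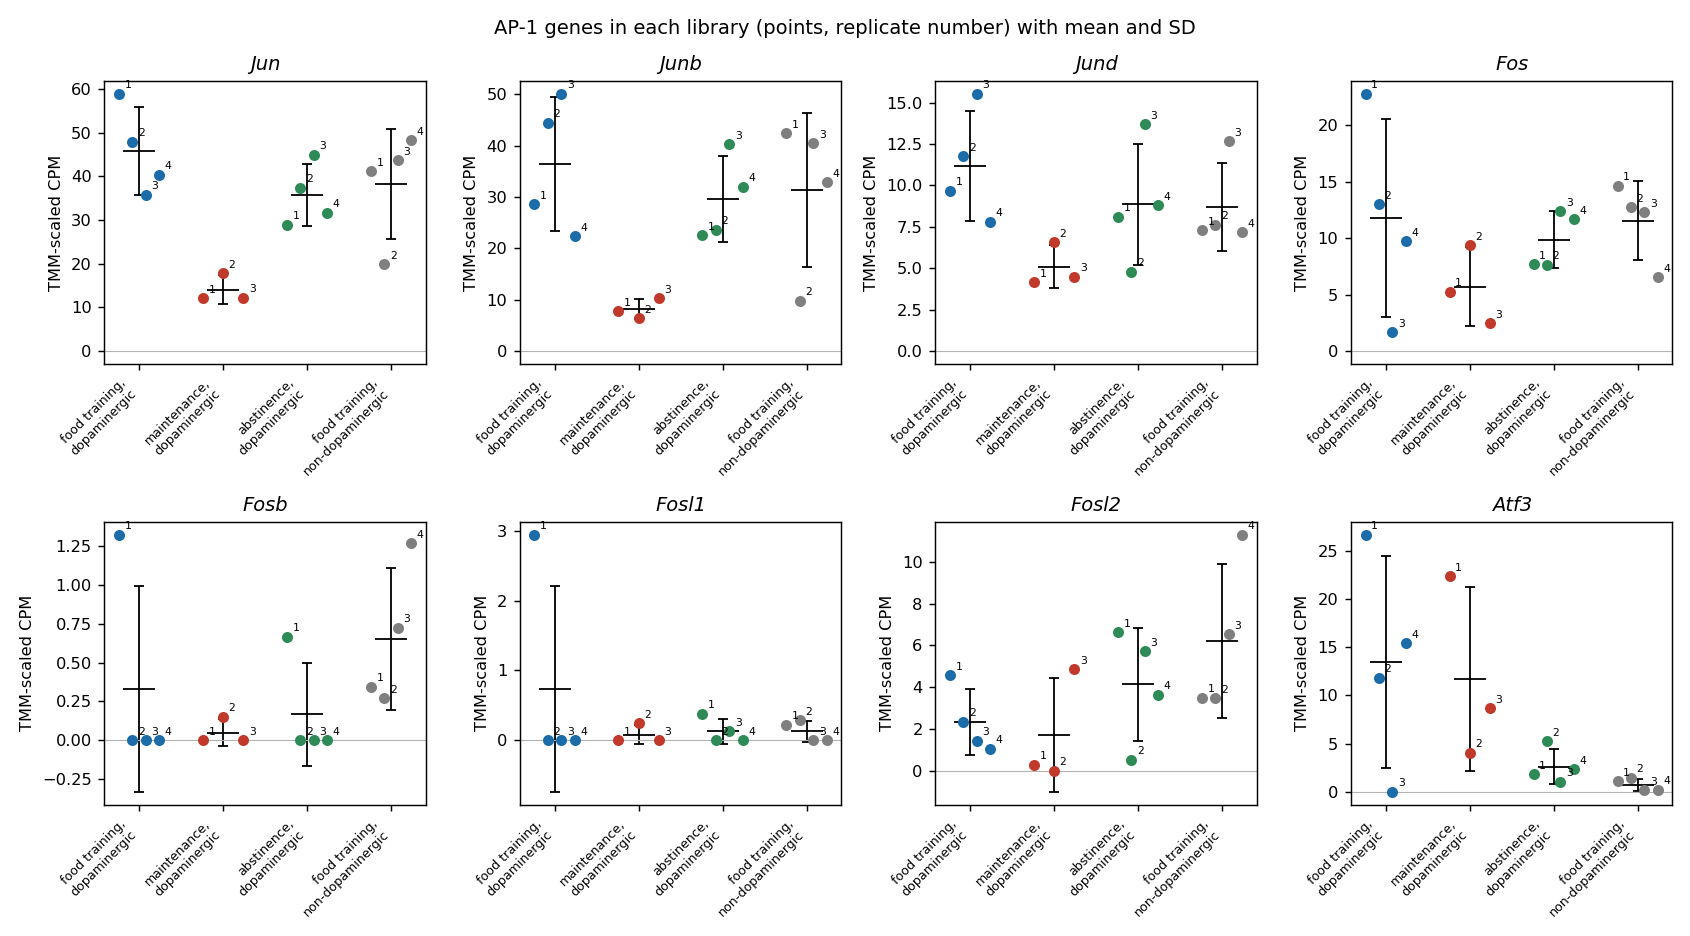
TMM-scaled CPM of each AP-1 gene in each library (points numbered by replicate, with the mean and SD of each group, one panel per gene with its own axis). Jun at maintenance sits at 12.1 to 17.9 CPM, below the 12 other libraries, while Fosb and Fosl1 are at 0 in most dopaminergic libraries.

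At maintenance against food training, all 7 members tested had a fitted log2 fold change below 0, and none passed the adjusted p threshold of 0.05 in edgeR's quasi-likelihood test. Of all 19060 genes tested, 0.131% passed. The sign of Fosl2 (-0.44, SE 1.71) and Atf3 (-0.20, SE 1.34) turned when food-trained replicate 1 was left out (0.11 and 0.37) or maintenance replicate 2 (0.12 and 0.18), and that of Fosl2 also without maintenance replicate 1 (0.052). Jun was at 45.8 ± 10.1 CPM after food training (SD, n = 4) and 14.1 ± 3.30 CPM at maintenance (n = 3), a log2 fold change of -1.70 (SE 0.35, adjusted p = 0.0900 in edgeR). Junb was at 36.4 ± 13.1 and 8.14 ± 1.99 CPM, a log2 fold change of -2.16 (SE 0.45, adjusted p = 0.0900 in edgeR). Jund was at 11.2 ± 3.31 and 5.08 ± 1.30 CPM, a log2 fold change of -1.14 (SE 0.73, adjusted p = 0.626 in edgeR). All 3 Jun genes thus had every maintenance library below every food-trained one without passing the threshold set over all genes. Such groups, not overlapping and lower at maintenance, were found for 4.21% of all genes tested. Unadjusted p-values under 0.05 were found for 2 members, Jun and Junb, and for 11.6% of all genes.

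The call depended on the test. DESeq2 called both genes, with a log2 fold change of -1.72 for Jun (adjusted p = 8.18e-06) and -2.18 for Junb (adjusted p = 2.42e-05), and it called 977 genes in all where edgeR called 25. In edgeR fits with each library left out in turn, the adjusted p stayed between 0.0697 and 0.291 for Jun and between 0.114 and 0.236 for Junb. Exons of Jun overlap those of Junos on the opposite strand, at 0.441 to 9.72 CPM after food training and 1.78 to 9.78 CPM at maintenance, and exons of Junb overlap those of Prdx2, at 73.3 to 99.3 and 100.4 to 127 CPM. Whether reads were counted by strand is not given in the sources used here, so reads of these neighbours may enter the counts. In bulk samples of sorted nuclei, fewer cells with a transcript and less of it per cell cannot be told apart.

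The GC slope of the libraries differed between maintenance and the other stages. Within food-trained dopaminergic nuclei it did not rise with Junb or Jund. There replicates 2 and 3, with slopes of -0.0167 and -0.00289, held the highest values of both genes. Transcript GC was 55.5% for Jun, 62.6% for Junb and 67.1% for Jund, above the median of 48.7% over the genes used for the slope, and the maintenance libraries had the most negative slopes of the dopaminergic nuclei. With counts corrected for GC in each library, the log2 fold change was -1.46 for Jun (adjusted p = 0.180 in edgeR), -1.45 for Junb (adjusted p = 0.363) and -0.18 for Jund. In a fit of all 15 libraries with the slope as a covariate it was -1.08 for Jun and -1.66 for Junb, both with an adjusted p of 0.588 in edgeR. Markers of other cells did not separate the stages as lists: the 10 oligodendrocyte genes summed to 914 to 1568 CPM after food training and 958 to 1390 CPM at maintenance, and the 10 microglial genes to 365 to 725 and 217 to 560 CPM. Among them Olig1 fell at maintenance, from 32.9 ± 16.6 to 0.0688 ± 0.119 CPM (adjusted p = 0.0103 in edgeR), and its part in the Jun result was not tested.

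**Figure D3:**
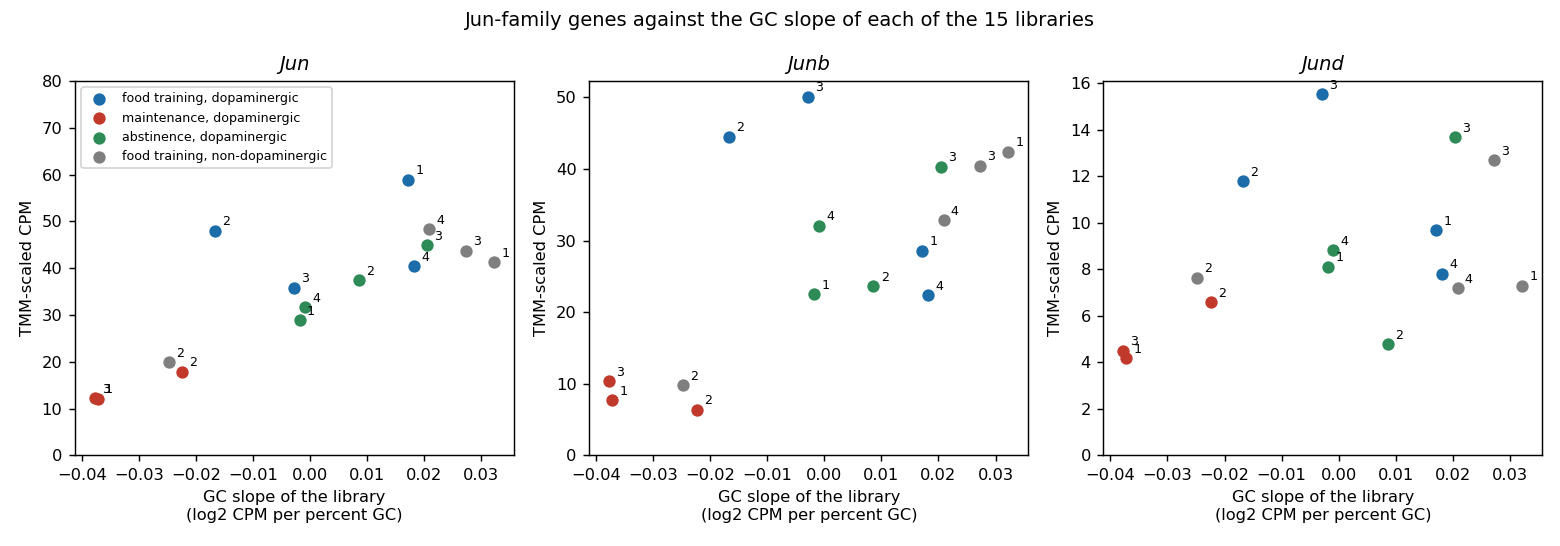
TMM-scaled CPM of Jun, Junb and Jund (one panel each) against the GC slope of each of the 15 libraries, in log2 CPM per percent GC, with points coloured by group. The maintenance libraries lie at slopes of -0.0377 to -0.0224, and non-dopaminergic replicate 2, at -0.0248, is the lowest of its group for Jun and Junb.

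**Figure D4:**
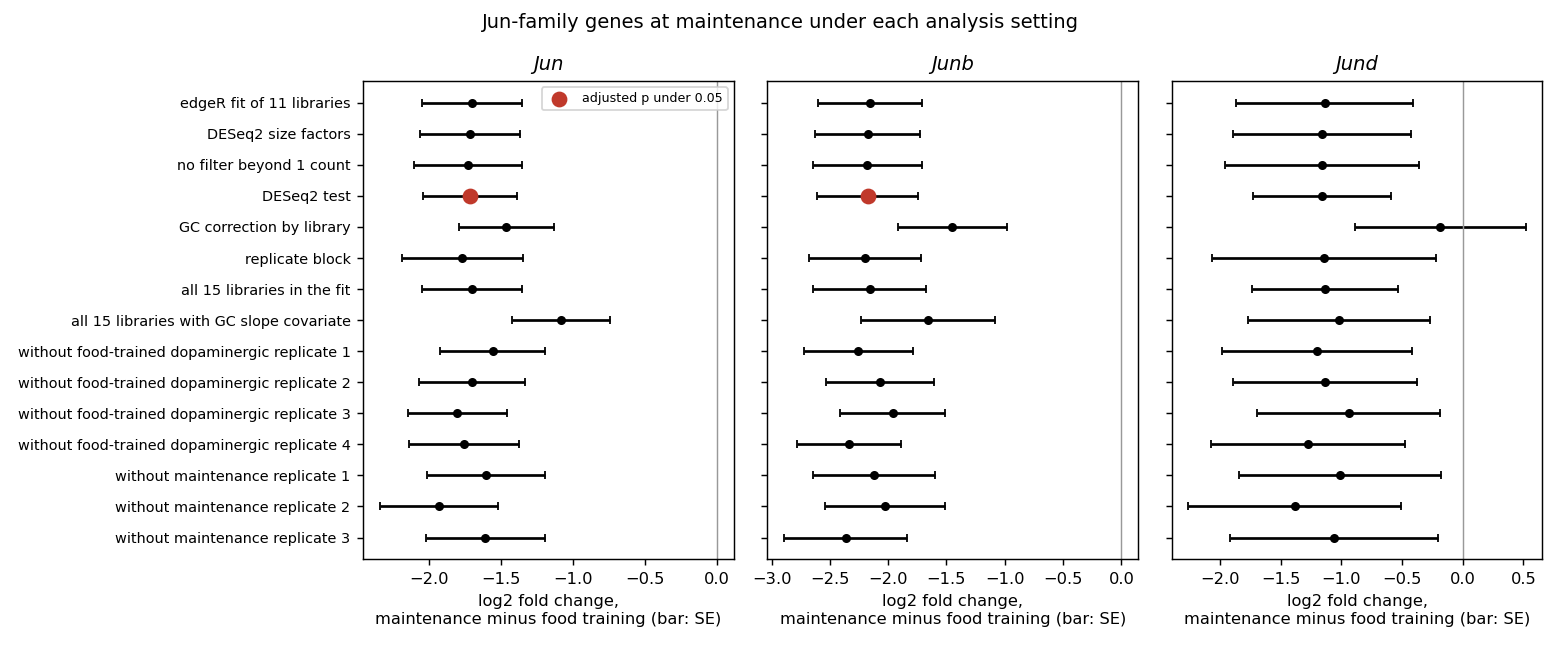
Log2 fold change of Jun, Junb and Jund at maintenance minus food training (points, with SE as bars) under each analysis setting. Every point lies below 0, from -1.93 to -1.08 for Jun and from -2.37 to -1.45 for Junb, and Jund comes closest to 0 with the GC correction, at -0.18.

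Between abstinence and food training, 6 of the 7 members tested had a log2 fold change below 0 and 1 above, and none passed in edgeR, where the share of all genes called was 0.0%. No member had an unadjusted p under 0.05, against 4.3% of all genes, and DESeq2 called no member among its 140 genes. Jun was at 35.7 ± 7.09 CPM in abstinence (SD, n = 4), a log2 fold change of -0.36 from food training (SE 0.31). Junb was at 29.6 ± 8.29 CPM, a log2 fold change of -0.30 (SE 0.38), and Jund at 8.85 ± 3.67 CPM, a log2 fold change of -0.34 (SE 0.66). Adjusted p-values were 0.999974 for all of these in edgeR, and for each gene the groups overlapped.

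Against maintenance, 6 of 7 members had a log2 fold change above 0 in abstinence, and 0 passed, beside 0.178% of all genes. Jun differed by 1.34 on the log2 scale (SE 0.34, adjusted p = 0.193 in edgeR) and Junb by 1.86 (SE 0.44, adjusted p = 0.146). For both, every abstinence library was above every maintenance library, as was found in that direction for 7.56% of all genes. Both had an unadjusted p under 0.05, beside 9.92% of all genes. DESeq2 called both, with adjusted p-values of 0.00247 for Jun and 0.00110 for Junb. With the GC correction the differences were 1.03 for Jun (adjusted p = 0.410 in edgeR) and 1.02 for Junb (adjusted p = 0.542), and that of Jund turned from 0.80 (SE 0.72) to -0.26. In the fit of all 15 libraries with the GC slope as a covariate they were 0.65 for Jun (adjusted p = 0.818 in edgeR) and 1.23 for Junb (adjusted p = 0.792). These contrasts share the maintenance libraries with those from food training, so they are not independent of them. The 10 oligodendrocyte genes summed to 755 to 1270 CPM in abstinence and 958 to 1390 CPM at maintenance. Among them Olig1 was at 38.2 ± 10.8 and 0.0688 ± 0.119 CPM (SD), and its part in these differences was not tested. Tested for a difference of any kind among the 3 stages, Jun and Junb had an unadjusted p under 0.05, beside 7.85% of all genes, but did not pass, beside 0.0839%. Their adjusted p was 0.206 for Jun and 0.204 for Junb in edgeR, and 0.000866 and 0.00213 in DESeq2.

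Across the 2 populations of food-trained mice, the Jun genes did not separate. Jun was at 38.3 ± 12.7 CPM in non-dopaminergic nuclei (SD, n = 4), and dopaminergic nuclei differed by 0.23 on the log2 scale (SE 0.32, adjusted p = 0.738 in edgeR). Junb was at 31.4 ± 15.0 CPM there, a difference of 0.18 (SE 0.47, adjusted p = 0.869), which was -0.12 without non-dopaminergic replicate 2. Jund was at 8.70 ± 2.67 CPM, a difference of 0.33 (SE 0.49, adjusted p = 0.755). Oligodendrocyte markers summed to 914 to 1568 CPM in these dopaminergic libraries and 7523 to 21931 CPM in the non-dopaminergic ones, and the part of glia in the values of the AP-1 genes was not tested. None of the 7 members tested here passed in edgeR, beside 12.8% of all 19786 genes, and 1, Atf3, had an unadjusted p under 0.05, beside 24.3%.

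**Figure D5:**
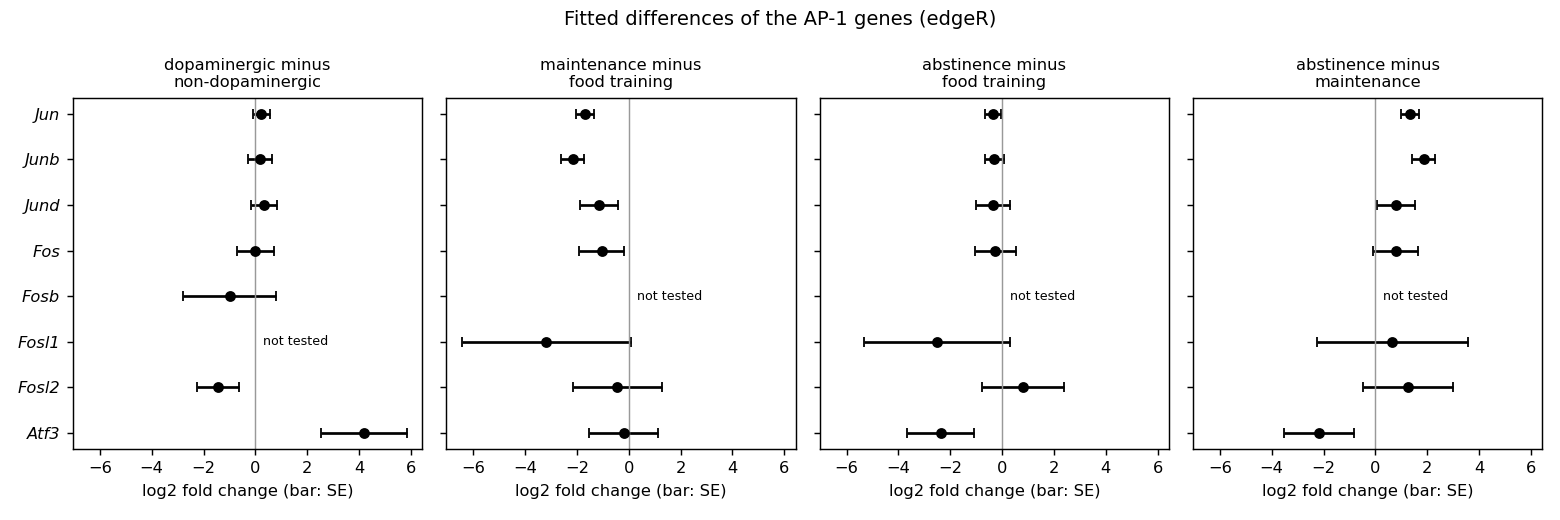
Fitted log2 fold change of each AP-1 gene (points, with SE as bars, edgeR) in each comparison, with a line at 0. At maintenance against food training the 7 genes tested all lie below 0, and Atf3 is at 4.19 in dopaminergic against non-dopaminergic nuclei.

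Fos, which encodes the c-Fos protein and is widely used as a mark of recent neuronal activity, varied more within food-trained dopaminergic nuclei than between groups. It is a gene of 4 exons on chromosome 12 (85473890 to 85477273, plus strand). It was at 22.8, 13, 1.65 and 9.72 CPM in those libraries, a range that held the values of all 11 libraries of the other groups. At maintenance Fos was at 5.26, 9.38 and 2.48 CPM, and in abstinence at 7.69, 7.64, 12.4 and 11.7 CPM. Non-dopaminergic nuclei had 14.6, 12.8, 12.3 and 6.56 CPM.

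The difference in Fos from food training was -1.05 at maintenance (SE 0.87, adjusted p = 0.783 in edgeR) and -0.26 in abstinence (SE 0.79, adjusted p = 0.999974) on the log2 scale. In abstinence its sign depended on 1 library, and it was 0.28 without food-trained replicate 1. Between the populations it was 0.0034 (SE 0.71, adjusted p = 0.998596 in edgeR), with means of 11.8 ± 8.74 and 11.6 ± 3.48 CPM (SD, n = 4 each).

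Fosl2 encodes Fra-2, a Fos protein that lacks the strong activation domain of c-Fos. It was at 4.56, 2.34, 1.43 and 1.04 CPM after food training, and at 0.289, 0 and 4.86 CPM at maintenance. Abstinence libraries had 6.65, 0.519, 5.72 and 3.64 CPM, and non-dopaminergic libraries 3.50, 3.48, 6.55 and 11.3 CPM. The dopaminergic groups overlapped throughout, and its difference between the populations was -1.43 (SE 0.81, adjusted p = 0.332 in edgeR).

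Fosb and Fosl1, which encodes Fra-1, were at 0 counts in most dopaminergic libraries and well above 0 in a few. Fosb was at 1.32 CPM (76 counts) in food-trained dopaminergic replicate 1 and at 0 in the other 3. It was at 0, 0.151 and 0 CPM at maintenance and at 0.667, 0, 0 and 0 CPM in abstinence. All 4 non-dopaminergic libraries held some, at 0.344, 0.269, 0.725 and 1.27 CPM. Detection was thus in 3 of 11 dopaminergic and 4 of 4 non-dopaminergic libraries. Over all genes, too, every dopaminergic library held counts for fewer genes than any non-dopaminergic one. Fosb did not enter the test between stages.

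The difference in Fosb between the populations, -0.99 (SE 1.795, adjusted p = 0.811 in edgeR), rested on that replicate 1. Without it the 3 food-trained dopaminergic libraries left were all at 0, and Fosb entered the fit only through the non-dopaminergic libraries. Its adjusted p of 0.0165 in edgeR there is therefore not read as support for a difference. Fosl1 was at 2.94 CPM (169 counts) in the same food-trained dopaminergic replicate 1 and at 0 in the other 3. At maintenance it was at 0, 0.241 and 0 CPM, in abstinence at 0.378, 0, 0.127 and 0, and in non-dopaminergic nuclei at 0.223, 0.290, 0 and 0. The gene overlaps exons of Ccdc85b on the opposite strand, which was at 24.4 to 71.6 CPM after food training. Fosl1 was not tested between the populations, and it entered the test between stages with counts in 4 of 11 libraries, but not when food-trained or abstinence replicate 1 was left out, with log2 fold changes of -3.18 at maintenance (SE 3.25) and -2.52 in abstinence (SE 2.81).

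Atf3, a factor known to be induced by stress and axon injury, was at 0 in 1 dopaminergic library and above 20 CPM in 2 others. It has 4 exons on chromosome 1 (191170296 to 191218039, minus strand). Food-trained dopaminergic nuclei had 26.7, 11.8, 0 and 15.4 CPM of Atf3. At maintenance it was at 22.4, 4.04 and 8.66 CPM, and in abstinence at 1.84, 5.25, 1.03 and 2.36 CPM. In non-dopaminergic nuclei it was at 1.09, 1.45, 0.159 and 0.215 CPM. All food-trained dopaminergic libraries but replicate 3 were thus above all non-dopaminergic ones, and abstinence libraries other than replicate 2 lay below the lowest maintenance value.

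Atf3 differed by 4.19 on the log2 scale between dopaminergic and non-dopaminergic nuclei (SE 1.64, adjusted p = 0.151 in edgeR), with means of 13.5 ± 11 and 0.729 ± 0.643 CPM (SD, n = 4 each). It passed in DESeq2, at 4.22 (adjusted p = 0.0136), and in edgeR without food-trained dopaminergic replicate 3, at 4.62 (adjusted p = 0.0123). That library had the lowest total count and the fewest genes with a count, 14841, and a count of 0 in it allowed at most 0.110 CPM. From food training Atf3 differed by -0.20 at maintenance (adjusted p = 0.996 in edgeR), with the sign depending on single libraries as given above, and by -2.37 in abstinence (SE 1.30, adjusted p = 0.999974). Abstinence against maintenance gave -2.16 (SE 1.35, adjusted p = 0.698 in edgeR), opposite in sign to the other 6 members tested.

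Members differed in how they varied over the 11 dopaminergic libraries. As a description over libraries that share their groups and GC slopes, Pearson's r of log2 CPM was 0.845 between Jun and Junb, 0.815 between Junb and Jund and 0.723 between Jun and Jund. It was 0.551 between Fos and Jun and -0.583 between Jund and Atf3. Food-trained replicate 1 was the highest of its group for Fos, Fosb, Fosl1, Fosl2, Jun and Atf3, and replicate 3 was the lowest for Fos, Jun and Atf3 but the highest for Junb and Jund.

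The genes most like each member over those libraries were sought among 11311 genes with a mean of at least 5 CPM. For Jun they were Arhgdia (r = 0.963), Ep400 (0.947) and Plppr3 (0.941), and for Junb Trim67 (0.949), Apln (0.937) and Ttll5 (0.931). For Jund they were Ptma (0.940), Zfp335 (0.911) and Rab5c (0.882), for Fos Arfgap2 (0.953), Slc9a3r1 (0.917) and Mtmr11 (0.916), and for Atf3 Sgk1 (0.947), Rsl1d1 (0.939) and Yipf1 (0.936). For Fosl2 they were Carm1 (0.940), Nudt5 (0.887) and Zfyve26 (0.885), and for Fosl1, which was at 0 in most of the libraries, Cox8a (0.935), Gabarapl2 (0.904) and Mrpl54 (0.891).

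Genes that work with AP-1 were examined in lists of other basic leucine zipper partners, upstream regulators, turnover factors, other immediate early genes and reported AP-1 targets. Between stages none of their genes passed in edgeR, of 14, 27, 11, 14 and 13 tested in that order. At maintenance against food training, 2, 7, 0, 0 and 2 of them had an unadjusted p under 0.05. The share over all genes was 11.6%. DESeq2 called 1 zipper partner (Nfe2l1), 3 upstream regulators (Elk1, Rps6ka4 and Mkl2) and 2 targets (Nfkb1 and Vgf) among its 977 genes there, all lower at maintenance except Mkl2, a coactivator of serum response factor, which was higher. Elk1, a partner of serum response factor at the Fos promoter, was at 44.8 ± 18.4 CPM after food training and 5.97 ± 5.81 CPM at maintenance, a log2 fold change of -2.92 (SE 0.69, adjusted p = 0.140 in edgeR), and Elk4, of the same family, was at 8.94 ± 4.19 and 30.5 ± 2.64 CPM (1.77, SE 0.72, adjusted p = 0.396). Vgf, a neuropeptide precursor, was at 292 ± 116 and 90.9 ± 20.9 CPM (-1.68, SE 0.49, adjusted p = 0.247). These genes are named after their values were seen. In abstinence against food training DESeq2 called none of the list genes. In abstinence against maintenance it called Nfe2l1, Crtc1, Elk1, Arc, Nfkb1 and Vgf as higher and Elk4 as lower, among 793 genes. Arc had 0 counts in all 3 maintenance libraries and was at 0, 4.69, 17.3 and 0.292 CPM in abstinence. Its call is therefore not read as support. The list medians at maintenance against food training were -0.18, -0.12, -0.29, 0.03 and 0.04 on the log2 scale, against -1.14 for the 7 AP-1 members and -0.01 for all genes tested. In abstinence against food training the members' median was -0.34 and that of all genes 0.04.

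Between the populations, 2 of 15 other zipper partners tested were lower in dopaminergic nuclei and none was higher in edgeR, while DESeq2 also called Ddit3 and Nfe2l1 as higher. Atf7, a partner related to Atf2, was at 29.5 ± 5.86 against 57.9 ± 5.00 CPM (SD, n = 4 each), a log2 fold change of -0.99 (SE 0.22, adjusted p = 0.0154 in edgeR). Batf3, a factor of immune cells, had 0 counts in all 4 dopaminergic libraries and 0.585 ± 0.323 CPM in the others. That mean was 5.31-fold a floor of 3 counts per library, taken in the shallowest of the 4. Batf3 entered the test only through the non-dopaminergic libraries, so its call is no separate support for the count. Microglial markers summed to 365 to 725 CPM in the dopaminergic libraries of food-trained mice and to 1358 to 2370 CPM in the others, and their part in these differences was not tested.

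Of 27 upstream regulators, 1 was higher and 2 were lower in dopaminergic nuclei in edgeR. Mapk8, which encodes the Jun kinase JNK1, was at 276 ± 59.5 against 159 ± 11.9 CPM, a log2 fold change of 0.77 (adjusted p = 0.0255 in edgeR). Crtc1, a coactivator of CREB, was at 13.3 ± 8.98 against 50.8 ± 15.9 CPM (-1.95, adjusted p = 0.0450). Mkl2 was at 58.1 ± 11.2 against 131.8 ± 19.8 CPM (-1.20, adjusted p = 0.00670). DESeq2 called these 3 and also Rps6ka2, which was lower.

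Of 16 other immediate early genes, 1 was higher and 3 were lower in dopaminergic nuclei in edgeR, and DESeq2 called these and also Homer1, which was higher. Btg2, an antiproliferative gene, was at 124 ± 40.1 against 46.4 ± 2.75 CPM, a log2 fold change of 1.39 (adjusted p = 0.00670 in edgeR). Arc, a regulator of synapses, was at 0.349 ± 0.652 against 33.2 ± 21.2 CPM (-6.54, adjusted p = 0.0306 in edgeR). It had 4, 0, 0 and 61 counts in the dopaminergic libraries and entered the test only through the non-dopaminergic ones. Its call is therefore not read as support. Nr4a1, a nuclear receptor, was at 4.34 ± 3.19 against 21.5 ± 6.74 CPM (-2.34, adjusted p = 0.0417 in edgeR). Egr3, a zinc finger factor, had 0 counts in all 4 dopaminergic libraries and 1.44 ± 1.28 CPM in the others, with 0.547 CPM in the lowest. That mean was 13.1-fold the same floor, and Egr3 entered the test in the same way as Batf3. Of the 13 reported AP-1 targets 1 passed in edgeR, the neuropeptide gene Cck, at 97.2 ± 55.6 against 16.4 ± 7.08 CPM (2.54, adjusted p = 0.00764). DESeq2 called Cck and Penk as higher and Camk2a and Ehmt2 as lower. Of the 11 turnover factors none passed in edgeR or DESeq2, with 1 at an unadjusted p under 0.05. In this comparison 3.63% of all genes tested were called higher and 9.17% lower, and the list medians were -0.95 for zipper partners, -0.56 for upstream regulators, -0.38 for turnover factors, -0.40 for immediate early genes and 0.03 for targets, against -0.21 for all genes and 0.18 for the AP-1 members.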

How the data were processed

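The authors deposited whole-number counts per gene for 15 samples, and per the submitters' processing notes the tools were Trim Galore 0.6.7, cutadapt 1.18, STAR 2.7.10a, StringTie 2.1.5 and DESeq2 1.38.3 with the build mm10 or GRCm38. The annotation, the use of strand and the read length are not given in the sources used here. A second deposited table of 10 columns held the same counts (0 cells differed) and was not used. Per the labels, sorted nuclei of 2 pooled mice gave each low-input library. Groups came from the sample titles, and p-values measure the spread between these pools.

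The software was edgeR 4.0.16, DESeq2 1.42.0 and limma 3.58.1 under R 4.3.3, and pandas 2.3.3 under Python 3.11.15. Genes were kept by filterByExpr, scaled by TMM factors and tested with edgeR's two-sided quasi-likelihood F-test at a Benjamini-Hochberg adjusted p under 0.05 over all genes. The population comparison used the 8 food-trained libraries, and the stage contrasts shared a fit of the 11 dopaminergic ones. CPM used TMM factors of all 15 libraries. The population test kept 7 of the 8 members (not Fosl1) and the stage test 7 (not Fosb).

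Transcript length and GC were those of each gene's longest GENCODE M21 transcript, matched for 26763 symbols directly and 518 by another symbol, with 8695 of 35976 unmatched. The 8343 genes whose mean log2 CPM exceeded 4 gave the GC slopes. Promoters were taken from RefSeq (GRCm38.p6). The tests were tested on simulated data. The members, the gene lists and the tests were chosen with earlier results of these data known. The genes named are all members, up to 4 genes per list and comparison past the threshold, and the 3 genes most like each member tested between stages. List genes named between stages or for DESeq2 alone and Olig1 were chosen after their values were seen. Alternatives were DESeq2's size factors and test, no filter beyond 1 count, a GC correction, a GC slope covariate, all 15 libraries in the stage fit, a replicate block and leaving out each library. The result of 1 further list gene is not reported here.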

Additional observations from a re-analysis of the deposited data

Results flagged for a closer look

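Among 24 sets of 4 libraries, 4 had a library far from the other 3 by Dixon's criterion, which weighs its gap to the nearest of them against the whole range. Chance gives this in about 1 in 20 sets of continuous values, a rate that does not hold for the 3 sets in which the other libraries were all at 0, since any count then meets the criterion. Fosb stood at 1.32 CPM in food-trained dopaminergic replicate 1 and at 0 in the other 3 libraries, and at 0.667 CPM in abstinence replicate 1 and at 0 in the other 3. Fosl1 stood at 2.94 CPM in the same food-trained dopaminergic replicate 1, with the other 3 at 0. Jund stood at 12.7 CPM in non-dopaminergic replicate 3, where the other 3 ranged from 7.18 to 7.64 CPM.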

How the results depend on the processing

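Of 508 alternative values for the members, 482 kept their direction and side of the threshold, 9 gained a call and 17 changed sign. No member had a call in edgeR to lose. The count for the populations (2534 in edgeR) was 3868 with DESeq2. At maintenance against food training (25) it was 977 with DESeq2, 15 with the GC correction and 4 with the GC slope covariate, and 5 to 78 with 1 library left out. The highest count came without maintenance replicate 2, followed by 43 without food-trained replicate 3, and the lowest without maintenance replicate 1, 7 without maintenance replicate 3 and 12 without food-trained replicate 4. In abstinence against food training (0) DESeq2 gave 140. Against maintenance (34) the counts were 793, 14 and 4, with 15 for all 15 libraries in the fit and 6 to 73 leaving out 1 library: 73 without maintenance replicate 2, and 6 to 14 without maintenance replicates 1 or 3 or abstinence replicates 1, 2 or 3. For any difference among stages (16) they were 358, 7 and 2, with 9 for all 15 libraries and 1 to 23 leaving out 1, with 1 without food-trained replicate 4 or any of the abstinence replicates. Fewer samples or a further term leave fewer degrees of freedom, and the cause of the other shifts was not tested.

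The labels do not say whether a replicate number marks shared mice, and the values did not reach the level used to pair samples: deviations of same-numbered libraries correlated at 0.0348 to 0.0874 between the populations and at -0.0752 to 0.0334 between stages, 0 pairs passed 0.1, and 3 of 4 food-trained dopaminergic libraries were closest to their own number. With a replicate block the counts were 775 for the populations (413 higher and 362 lower, against 719 and 1815 without the block), 0 at maintenance against food training, 2 for abstinence against maintenance and 0 for any difference. Under the block the difference of Fos was -0.31 between populations and 0.16 in abstinence against food training, Fosl1 was at 0.012 at maintenance and 0.16 in abstinence, and Atf3 at 0.57 at maintenance. Other reversals were Fos between populations (-0.018 with no filter; -0.53 to 0.40 leaving out 1 library, below 0 without dopaminergic replicates 1 or 2 or non-dopaminergic replicate 4) and in abstinence against food training (-0.62 to 0.28, above 0 without food-trained replicate 1), Junb between populations (-0.12 to 0.40, below 0 without non-dopaminergic replicate 2), Fosl2 and Atf3 at maintenance (-3.98 to 0.12 and -1.09 to 0.37), and Jund in abstinence against maintenance (-0.26 with the GC correction). DESeq2 gave no value for Fosl1. Fosb, Fosl1, Fosl2 and Atf3 were at 0 in some libraries, and 3 counts stand for 0.0523 to 0.110 CPM over the 15 libraries.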
